A study of Camellia sinensis with 12 samples.

Results

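The miRNAs described here are 4 members of the csn-miR166 family of tea, listed in the count files as cas-MIR166-4, cas-MIR166-41, cas-MIR166-22 and cas-MIR166-32. They were chosen by name out of 650 listed miRNA IDs, of which 42 are cas-MIR166- IDs, because they were known to be abundant, so their abundance is given as a description and was not tested. Summed over all libraries, they held 93.5% of the counts of the family. The counts bear out the word abundant for the first 3 but less so for cas-MIR166-32. In the family, cas-MIR166-4 ranked 1 with 1750122 counts, cas-MIR166-41 ranked 2 with 671425, cas-MIR166-22 ranked 4 with 86856 and cas-MIR166-32 ranked 7 with 11213. Just outside the 4, cas-MIR166-2 had 92414 counts and ranked between cas-MIR166-41 and cas-MIR166-22. These ranks are of summed counts. By tissue, cas-MIR166-22 held the larger mean share of the family in sBud (6.42% against 3.31% for cas-MIR166-2) and sL2 (3.53% against 2.39%), and the smaller in sL1 (2.57% against 3.69%) and sS1 (1.66% against 3.96%). Named after their values were seen, cas-MIR166-13 and cas-MIR166-28 also lay above cas-MIR166-32, with 42149 and 24137 counts, and cas-MIR166-5 lay just below it with 10439. The remaining 34 IDs each had 1026 counts or fewer.

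The small RNAs came from field-grown tea plants (*Camellia sinensis*) of the XYMJ variety, Xinyang Maojian, a green tea picked as a bud with its uppermost leaves. They were sequenced in 12 libraries, 3 for each of 4 tissues, with no treatment given for any of them. sBud is the bud at the shoot tip, sL1 the first leaf below it, sL2 the more mature second leaf, and sS1 the stem between both leaves. Tissue was gathered from many plants, with buds, leaves and stems dissected by position, so a tissue is a mixture of cell types.

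Plant miR166, with the closely related miR165, directs the cleavage of mRNAs of class III homeodomain leucine zipper (HD-ZIP III) transcription factors, such as PHABULOSA, PHAVOLUTA and REVOLUTA in Arabidopsis. These factors specify the upper (adaxial) side of the leaf and are needed for the shoot meristem and for the patterning of xylem and phloem in the stem. miR166 accumulates on the lower (abaxial) side of the young leaf in Arabidopsis and keeps the factors out of it. Another small RNA pathway of leaf polarity starts with miR390, which triggers the TAS3 tasiRNAs that act on auxin response factors.

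Libraries held between 387015 and 746562 counts. Libraries of the same tissue differed by more than the sampling of reads (chi-square per degree of freedom of 7.97 or more for every pair), so none was a copy of another. The deposited tissue field says leaf for every library, and the tissues are taken from titles and group tags. The labels also name a library kit for mRNA, whereas the study's methods describe small RNA libraries. As the counts are of miRNAs, the tissues were not checked against marker genes. Across 222 IDs, the log2 levels of sS1 and sL1 libraries correlated at 0.938 to 0.963, with a median inside the medians of replicates within a tissue (0.947 to 0.959), while sL2 libraries had medians of 0.811 to 0.843 with the other tissues. Mature sequences were not used here, and the rule for reads that match several IDs is not given in the sources used here. Reads of near-identical members may therefore have been shared among them or assigned to 1 of them, and each value below is that of an ID.

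The family made up a large part of all miRNA counts. On average this part was largest in the stem, whose libraries overlapped with those of sL1. Before normalization, cas-MIR166- IDs held 35.7% to 38.0% of the counts of sBud libraries, 42.7% to 49.8% of sL1, 29.1% to 32.5% of sL2 and 47.1% to 55.9% of sS1. The 4 members alone held 33.2% to 35.5% in sBud, 39.8% to 46.7% in sL1 and 27.0% to 30.2% in sL2, with 43.9% to 52.6% in sS1. Their order was the same in all 12 libraries, with cas-MIR166-4 first, then cas-MIR166-41, cas-MIR166-22 and cas-MIR166-32. Of all 650 IDs, cas-MIR166-4 ranked 1 in the 3 sS1 libraries and 2 in the other 9. cas-MIR166-41 ranked 3 outside sL2 and 4 within it. cas-MIR166-22 ranked between 5 and 14, and cas-MIR166-32 between 18 and 44.

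cas-MIR166-4 was highest in the stem. Its normalized levels, in CPM (the count relative to the TMM-scaled total of its library) and in the order of replicates 1, 2 and 3, were 190673, 221903 and 174997 CPM in sBud. They were 240321, 321194 and 332122 CPM in sL1 and 209643, 167669 and 203103 CPM in sL2. In sS1 they were 472810, 323289 and 404522 CPM. From highest to lowest the tissues stood as sS1, sL1, sBud and sL2. The libraries of sS1 overlapped with those of sL1, and those of sBud with those of sL2, whereas every sL1 library lay above every sBud and sL2 library. The rule for a differentially expressed miRNA (DEM) follows the study's methods. An ID was a DEM where its log2 fold change lay beyond 1 in either direction with an unadjusted p below 0.05, here from the quasi-likelihood test of edgeR, and printed p-values are adjusted over the 222 IDs tested unless said otherwise. They weigh a difference between tissues against the spread between these libraries only. edgeR pools that spread over the 4 tissues and moderates it across IDs. By this rule, cas-MIR166-4 rose to 400207 ± 74854 CPM in sS1 against 195858 ± 23879 CPM in sBud (SD, n = 3 each), a log2 fold change of 1.03 (SE 0.17, edgeR adjusted p = 0.000425). It was likewise a DEM in sS1 against sL2, where it averaged 193472 ± 22584 CPM (1.05 ± 0.17 SE, edgeR adjusted p = 0.000165). Both values lay close to the fold threshold. Without sS1 replicate 1 they were 0.82 and 0.88 and no longer DEMs, and sS1 over sBud also lost its call without sBud replicate 3 (0.91), sL1 replicate 1 (0.98), sL1 replicate 2 (0.98), sL2 replicate 1 (0.98) or sS1 replicate 3 (0.98), and with DESeq2 (0.95), filterByExpr (0.96) or a fit of the 2 tissues only (0.98). In sS1 over sL2 the call was lost with DESeq2 (0.92). In each of these settings the unadjusted p stayed below 0.05.

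Among bud and leaves, cas-MIR166-4 differed by less than the fold threshold. It averaged 297879 ± 50145 CPM in sL1 against 195858 ± 23879 CPM in sBud (log2 fold change 0.60 ± 0.16 SE, edgeR adjusted p = 0.0205). In sL2 against sL1 the log2 fold change was -0.62 (SE 0.16, edgeR adjusted p = 0.00759). No difference was detectable between sL2 and sBud, with a log2 fold change of -0.02 and a 95% interval from -0.37 to 0.33.

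cas-MIR166-41 was lowest in the second leaf. The libraries had 102470, 116321 and 108752 CPM in sBud, 119766, 140629 and 164232 in sL1 and 67031, 49129 and 63199 in sL2. The stem libraries had 130637, 114417 and 116633 CPM. All 9 libraries of sBud, sL1 and sS1 lay above the 3 of sL2. Among these, sL1 overlapped with sS1 and sS1 with sBud, but sL1 lay above sBud throughout. The member fell to 59787 ± 9426 CPM in sL2 against 141542 ± 22247 CPM in sL1 (SD, n = 3 each), a log2 fold change of -1.24 (SE 0.15, edgeR adjusted p = 1.29e-05). It was higher in sS1 than in sL2, at 120562 ± 8795 CPM in sS1 (log2 fold change 1.01 ± 0.15 SE, edgeR adjusted p = 8.61e-05). The value for sS1 against sL2 was under the threshold without sS1 replicate 1 (0.93), sL1 replicate 3 (0.98) or sL2 replicate 2 (0.998), and also with DESeq2 (0.89), filterByExpr (0.97) or a fit of the 2 tissues only (0.997). In sL2 against sBud the log2 fold change was -0.87 (edgeR adjusted p = 0.000357), and without sL2 replicate 1 it passed the threshold at -1.13. Against sBud, which averaged 109181 ± 6935 CPM, the log2 fold change was 0.37 for sL1 (95% interval 0.06 to 0.69, edgeR adjusted p = 0.117) and 0.14 for sS1 (95% interval -0.17 to 0.46). In sS1 over sL1 it was -0.23 (95% interval -0.55 to 0.09). The low second leaf was not particular to this member. In sL2 over sL1 the log2 fold change was -1.41 for cas-MIR166-2 and -1.45 for cas-MIR166-5, but -0.08 for cas-MIR166-13 and 0.66 for cas-MIR166-28.

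cas-MIR166-22 was highest in the bud, and every sBud library lay above the other 9. It had 22773, 20498 and 24522 CPM in sBud, 9966, 12204 and 15355 in sL1 and 13644, 8703 and 7899 in sL2. The stem libraries had 10360, 9821 and 7532 CPM. Outside the bud the ranges of the tissues overlapped. The member fell to 9238 ± 1502 CPM in sS1 against 22598 ± 2018 CPM in sBud (SD, n = 3 each; log2 fold change -1.29 ± 0.23 SE, edgeR adjusted p = 0.000778) and in sL2 against sBud (-1.16 ± 0.23 SE, edgeR adjusted p = 0.000967). In sL1 against sBud the log2 fold change of -0.85 had an adjusted p of 0.0198 from edgeR but did not reach the fold threshold, which it passed without sL1 replicate 3 (-1.01). Differences among sL1, sL2 and sS1 were not detectable, with 95% intervals of the log2 fold change from -0.79 to 0.17 for sL2 over sL1, from -0.92 to 0.05 for sS1 over sL1 and from -0.61 to 0.36 for sS1 over sL2. For sL2 over sL1 this rested on sL2 replicate 1, without which the log2 fold change was -0.75 (edgeR adjusted p = 0.0146, against 0.294 with it).

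cas-MIR166-32 had the widest range of tissue means of the 4, relative to its level, and ran opposite to cas-MIR166-4. Its levels were 2916, 2259 and 3543 CPM in sBud, 1048, 672 and 1127 in sL1 and 1773, 2933 and 2201 in sL2. The stem libraries were at 456, 580 and 409 CPM. The bud and the second leaf overlapped at the top, the first leaf lay below both, and every stem library lay below every other library. In counts, the sS1 libraries held 292, 334 and 197 reads of this ID, so none was near the limit of 3 counts that a count of 0 allows. The member fell to 482 ± 88.5 CPM in sS1 against 2906 ± 642 CPM in sBud (SD, n = 3 each), or 6.03-fold (log2 fold change -2.59 ± 0.28 SE, edgeR adjusted p = 1.41e-05). It also fell in sS1 against sL2, where it averaged 2302 ± 587 CPM, or 4.77-fold (log2 fold change -2.26 ± 0.28 SE, edgeR adjusted p = 1.90e-05). In sL1 it averaged 949 ± 243 CPM and fell against sBud (log2 fold change -1.62 ± 0.28 SE, edgeR adjusted p = 0.000939). It rose in sL2 against sL1 (log2 fold change 1.28 ± 0.27 SE, edgeR adjusted p = 0.00177), a call that was lost without sL1 replicate 2 (0.96). No difference was detectable between sL2 and sBud (log2 fold change -0.34, 95% interval -0.91 to 0.24).

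In sS1 against sL1, the pair of tissues that were most alike, 0 of the 4 members were DEMs with edgeR, beside 7.21% of all IDs. Unadjusted p was below 0.05 for 2 of the 4, cas-MIR166-4 (log2 fold change 0.43, adjusted p = 0.216) and cas-MIR166-32 (-0.98, adjusted p = 0.136), and 1 of the 4 had an adjusted p below 0.05 with DESeq2 and 0 with limma-voom. cas-MIR166-32 stood just under the fold threshold and passed it without sBud replicate 3 (-1.04), sL1 replicate 2 (-1.23), sL2 replicate 1 (-1.03) or sS1 replicate 2 (-1.24). Of all 222 IDs, 0 had an adjusted p below 0.05 in this comparison with edgeR, 5 with DESeq2 and 2 with limma-voom, while 30 had an unadjusted p below 0.05 with edgeR.

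**Figure D1:**
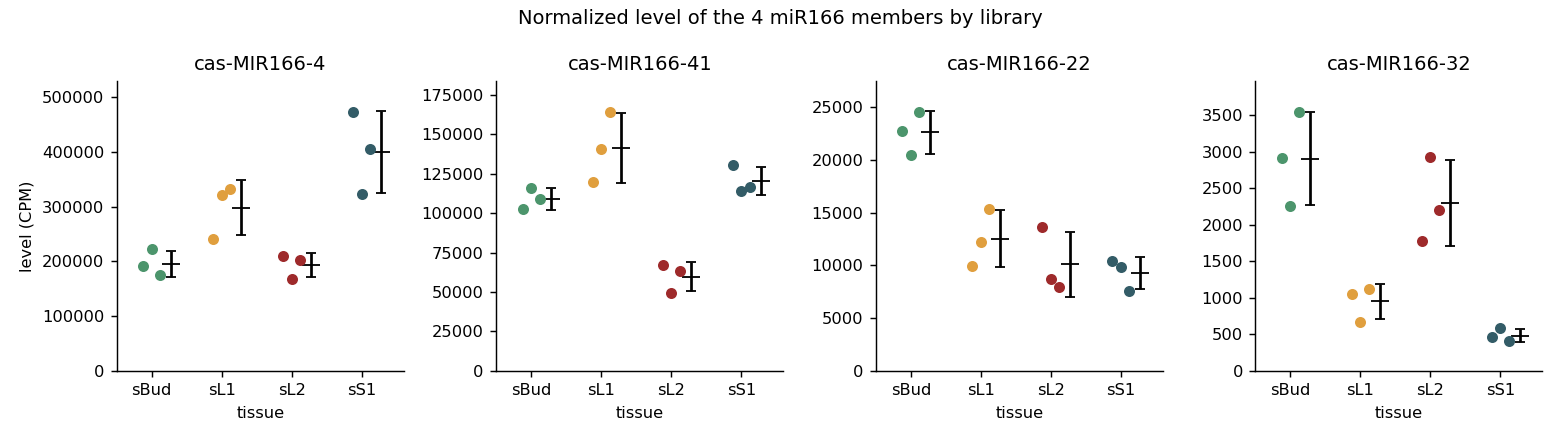
Normalized levels of the 4 members by library, in CPM on linear axes that start at 0. Points are the 3 libraries of a tissue, and the bar and whiskers beside them are their mean and SD. cas-MIR166-4 is highest in sS1, cas-MIR166-41 lowest in sL2, cas-MIR166-22 highest in sBud, and cas-MIR166-32 lowest in sS1, between 409 and 580 CPM.

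Set beside all tested IDs, members were DEMs in comparisons that called many other IDs too, and with 4 members any share is coarse. DEMs made up 19.4% of all 222 tested IDs in sL1 over sBud, where 1 of the 4 members was a DEM. They made up 43.2% in sL2 over sBud, where 1 of 4 was, and 40.5% in sL2 over sL1, where 2 of 4 were. In sS1 over sBud 3 of 4 members were DEMs, against 29.3% of all IDs, and in sS1 over sL2 also 3 of 4, against 41.4%. The directions of the members differed within a comparison. In sS1 over sBud, 1 member rose (13.1% of all IDs) and 2 fell (16.2%). In sS1 over sL2, 2 rose (20.3%) and 1 fell (21.2%), and in sL2 over sL1, 1 rose (21.2%) and 1 fell (19.4%). The only member called in sL1 over sBud and in sL2 over sBud fell, where 9.91% and 19.8% of all IDs fell and 9.46% and 23.4% rose. In sS1 over sL1, 4.5% of all IDs rose and 2.7% fell. By an edgeR adjusted p below 0.05 without regard to fold, 3 of 4 members were called in sL1 over sBud (15.8% of all IDs), 2 of 4 in sL2 over sBud (44.1%), 3 of 4 in sL2 over sL1 (41.4%), 3 of 4 in sS1 over sBud (27.5%) and 3 of 4 in sS1 over sL2 (40.5%). Ranges of the compared tissues were separate for 4 of 4 members in sL1 over sBud (25.7% of all IDs), 2 of 4 in sL2 over sBud (50.9%), 3 of 4 in sL2 over sL1 (53.2%), 3 of 4 in sS1 over sBud (41%), 1 of 4 in sS1 over sL1 (16.2%) and 3 of 4 in sS1 over sL2 (50.9%). Since the tissues are measured as bulk samples, fewer cells that hold a miRNA and less of it per cell cannot be told apart.

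**Figure D2:**
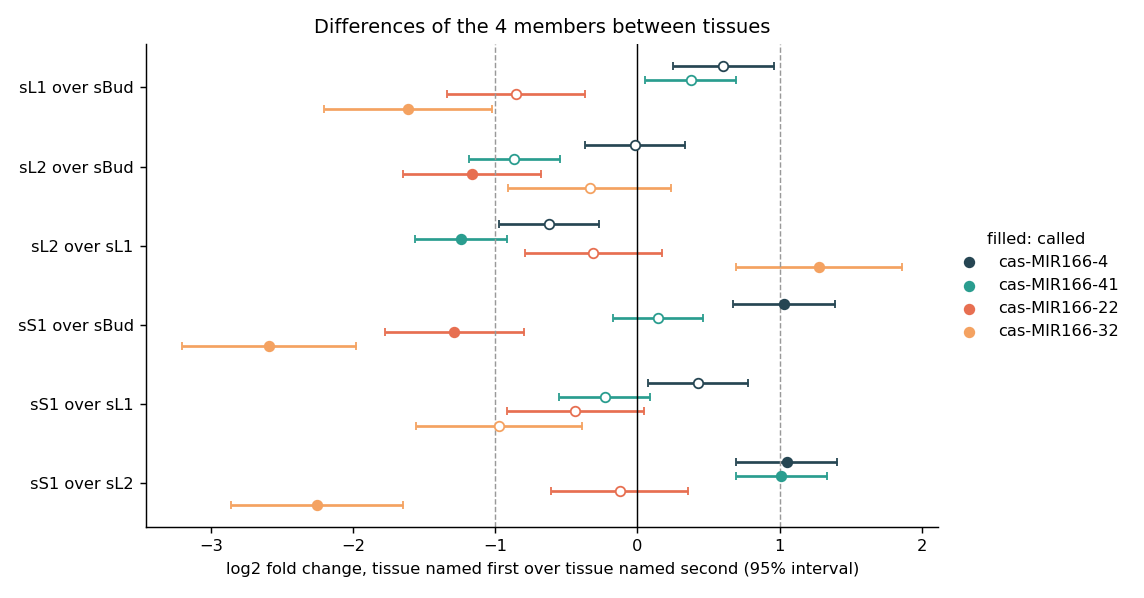
Log2 fold changes of the 4 members in the 6 comparisons, for the tissue named first over the one named second. Points are edgeR estimates, whiskers 95% intervals, filled points DEMs, and dashed lines the fold threshold of 1 on the log2 scale. The sS1 over sBud values run from -2.59 for cas-MIR166-32 to 1.03 for cas-MIR166-4.

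The family is a large part of the counts, and the values moved with the scaling of the libraries. Normalized on the IDs outside the family, the log2 fold changes of all IDs moved by a median of 0.39 in sS1 over sL2, 0.26 in sS1 over sL1, 0.23 in sS1 over sBud, -0.16 in sL2 over sBud and -0.13 in sL2 over sL1. With library size only, they moved by -0.26, -0.09 and -0.18 in the 3 comparisons of sS1 in the same order, and by 0.17 in sL2 over sL1. With RLE size factors they moved by -0.13 in sS1 over sL2. In sS1 over sBud, 29 IDs were upregulated and 36 downregulated DEMs, 40 and 27 without the family in the scaling and 23 and 47 with library size only. In sS1 over sL2 the numbers were 45 and 47, then 57 and 36, then 33 and 52. In sS1 over sL1 they were 10 and 6, then 19 and 4, then 9 and 10, and 9 and 9 when the 5 most abundant IDs were left out of the scaling. Under these scalings, cas-MIR166-4 in sS1 over sBud ranged from 0.84 to 1.28 and in sS1 over sL2 from 0.77 to 1.46, and both were under the fold threshold with library size only and with RLE size factors, as was cas-MIR166-41 in sS1 over sL2 (0.74 with library size only). For cas-MIR166-32 in sS1 over sBud the range was -2.77 to -2.39.

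The share that a member holds of all cas-MIR166- counts of its library needs no such scaling. The shares of a library sum to 100%, so a larger share of 1 ID means smaller shares of others. cas-MIR166-4 held 55.8%, 57.4% and 52.0% of the family in the sBud libraries, 60.4%, 63.5% and 60.7% in sL1 and 67.6%, 68.3% and 68.0% in sL2, with 72.5%, 67.4% and 71.4% in sS1. Its share was thus lowest in the bud and overlapped only between sL2 and sS1. The share of cas-MIR166-41 was 30.8% ± 1.31 for sBud (SD, n = 3 for each tissue), 29.3% ± 1.30 for sL1, 20.9% ± 0.833 for sL2 and 21.5% ± 2.05 for sS1, with sBud and sL1 at 27.8% or more in each library and sL2 and sS1 at 23.8% or less. That of cas-MIR166-22 was 6.42% ± 1.01 for sBud, 2.57% ± 0.204 for sL1, 3.53% ± 0.877 for sL2 and 1.66% ± 0.363 for sS1, highest in every bud library. That of cas-MIR166-32 was 0.830% ± 0.235 for sBud, 0.201% ± 0.0655 for sL1, 0.834% ± 0.322 for sL2 and 0.0877% ± 0.0288 for sS1. From counting alone, the 95% Wilson interval of any of these shares was at most 0.246 percentage points to either side. The 4 together held between 92.6% and 94.2% of the family in each library.

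**Figure D3:**
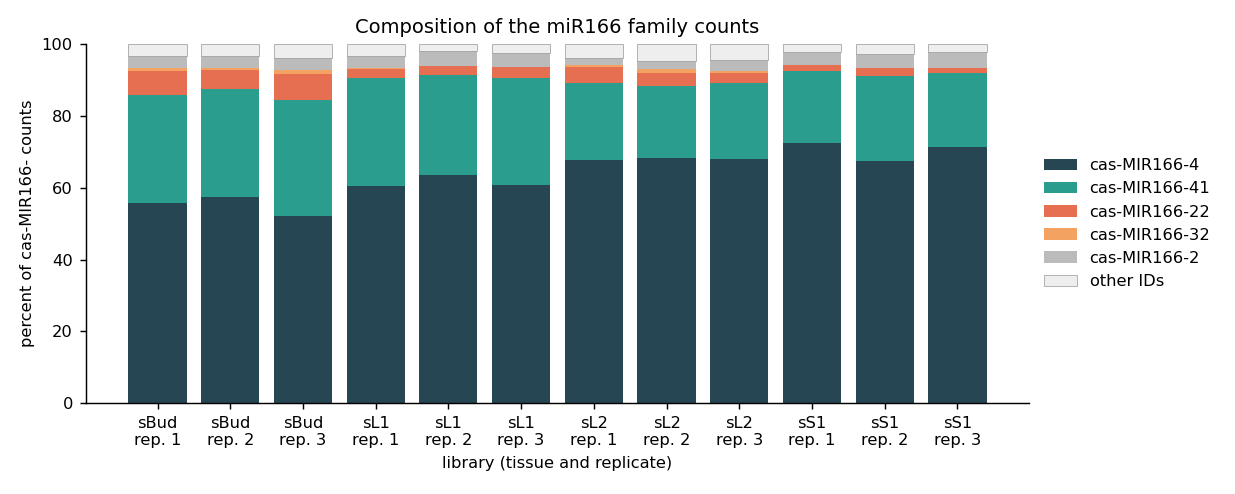
Percent of all cas-MIR166- counts held by the 4 members, by cas-MIR166-2 and by the other IDs of the family, for each of the 12 libraries. The part of cas-MIR166-4 is smallest in sBud, at 52.0% to 57.4%, and that of cas-MIR166-22 largest there, at 5.31% to 7.29%.

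Permuted over all libraries, the shares differed between tissues for all 4 members. The F statistic of each share was set against its values in every one of the 369600 ways to place the libraries in 4 tissues, a two-sided exact permutation test with a smallest possible p of 6.49e-05 and with adjustment over the 32 cas-MIR166- IDs with at least 10 counts. Of these 32 IDs, 34.4% had an adjusted p below 0.05. Each p is for all 4 tissues together. The highest and lowest tissues were picked from the means, and no pair of tissues was tested alone. For cas-MIR166-4 the mean share was 15.4 percentage points higher in sS1, the highest tissue, than in sBud, the lowest (exact permutation test, p = 0.00026, adjusted p = 0.00416). For cas-MIR166-22 it was 4.76 percentage points higher in sBud, the highest tissue, than in sS1, the lowest (exact permutation test, p = 0.00013, adjusted p = 0.00416). cas-MIR166-41 differed by 9.88 percentage points between sBud, the highest, and sL2, the lowest (exact permutation test, p = 0.00364, adjusted p = 0.0164), and cas-MIR166-32 by 0.746 between sL2, the highest, and sS1, the lowest (exact permutation test, p = 0.00494, adjusted p = 0.0175). The adjusted p of cas-MIR166-32 was 0.0561 without sS1 replicate 1 and 0.0556 without sS1 replicate 3. Permuted only within replicate numbers, the adjusted p was above 0.05 for cas-MIR166-41 and for cas-MIR166-32 (exact permutation tests).

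Ratios of members within a library show the same composition on another scale and are given as a description. cas-MIR166-4 had 1.61 to 1.91 counts for each count of cas-MIR166-41 in sBud, 2.01 to 2.28 in sL1 and 3.13 to 3.41 in sL2, with 2.83 to 3.62 in sS1. For each count of cas-MIR166-22 it had 7.14 to 10.8 counts in sBud, 21.6 to 26.3 in sL1 and 15.4 to 25.7 in sL2, with 32.9 to 53.7 in sS1. For each count of cas-MIR166-32 it had 49.4 to 98.2 counts in sBud, 229 to 478 in sL1 and 57.2 to 118 in sL2, with 557 to 1036 in sS1. The stem libraries lay above all others in both of the last ratios.

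**Figure D4:**
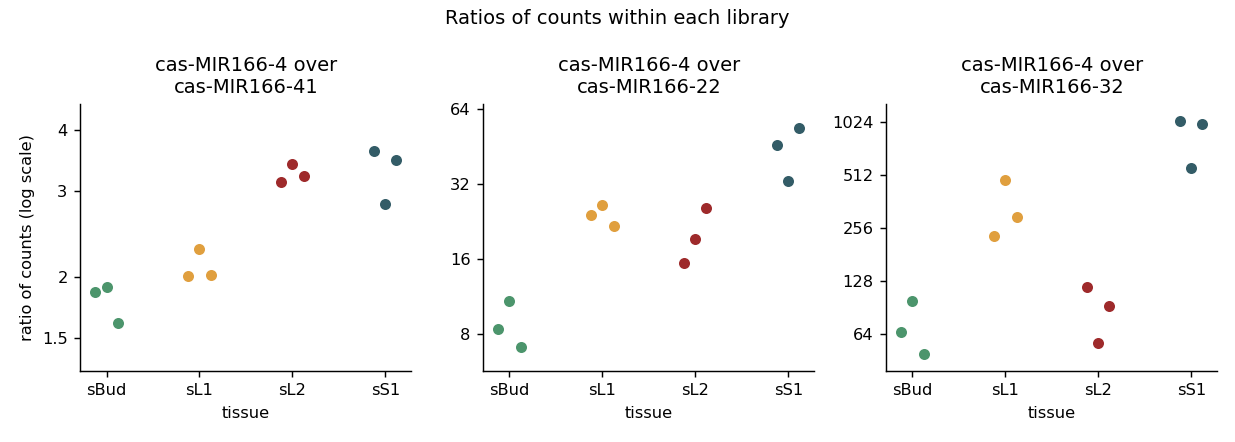
Counts of cas-MIR166-4 divided by those of cas-MIR166-41, cas-MIR166-22 and cas-MIR166-32 in the same library, on log axes with a range of their own. Points are libraries. The ratio to cas-MIR166-32 lies between 49.4 and 98.2 in sBud and between 557 and 1036 in sS1.

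Across the 12 libraries, the log2 level of cas-MIR166-4 had a Pearson correlation of 0.66 with that of cas-MIR166-41, -0.39 with cas-MIR166-22 and -0.95 with cas-MIR166-32. The correlation of cas-MIR166-41 was 0.29 with cas-MIR166-22 and -0.54 with cas-MIR166-32, and that of cas-MIR166-22 with cas-MIR166-32 was 0.55. These are descriptions of 12 points that fall into 4 tissues and share the scaling of their library. By the same measure, the profiles most like a member were looked up among 130 other IDs with at least 10 counts on average. The nearest to cas-MIR166-4 were cas-MIR167_2-1 (0.92), cas-MIR535-1 (0.91) and cas-MIR166-3 (0.90). The nearest to cas-MIR166-41 were cas-MIR167_2-3 (0.94), cas-MIR167_2-2 (0.93) and cas-MIR394-1 (0.92). cas-MIR167_2-2 was at 80.1 ± 36.9 CPM in sL2 and at 5244 ± 405 CPM or more in the other tissues, so it shares the low second leaf on a far wider range. The nearest to cas-MIR166-22 were cas-MIR159-1 (0.88), cas-MIR160-2 (0.88) and cas-MIR396-8 (0.81), each highest in sBud. The nearest to cas-MIR166-32 were cas-MIR156-14 (0.93), cas-MIR390-1 (0.90) and cas-MIR159-17 (0.89). Few or no reads lay behind part of 2 of these profiles. cas-MIR156-14 averaged 0 CPM in sS1 and 1.60 CPM in sL1, and cas-MIR396-8 averaged 10.4 CPM or less in each tissue outside sBud.

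Of the other cas-MIR166- IDs, 28 of 38 had enough counts to be tested. In sL1 over sBud 0 of the 28 were DEMs with edgeR, 1 had an unadjusted p below 0.05, and 0 had an adjusted p below 0.05 with DESeq2 or limma-voom. In sL2 over sBud 5 of the 28 fell, where 19.8% of all IDs did. In sL2 over sL1 1 rose (21.2% of all IDs) and 7 fell (19.4%), in sS1 over sBud 2 rose (13.1%), in sS1 over sL1 1 rose (4.5%) and in sS1 over sL2 8 rose (20.3%). Their median log2 fold change was 0.62 in sS1 over sL2 and -0.54 in sL2 over sL1, beside medians of -0.02 and -0.11 over all 222 IDs. cas-MIR166-2, the most abundant of them, rose in sS1 against sL2, at 22358 ± 3139 CPM in sS1 and 6778 ± 1733 CPM in sL2 (log2 fold change 1.72 ± 0.22 SE, edgeR adjusted p = 2.07e-05). Of cas-MIR165- IDs, 0 are listed in the files used here. The IDs of cas-MIR390, the trigger of the TAS3 pathway, numbered 8, of which 4 were tested. In sL1 over sBud and in sS1 over sL1 0 of the 4 were DEMs with edgeR, with 1 at an unadjusted p below 0.05 in each and 1 at an adjusted p below 0.05 with DESeq2 in each. By the adjusted p of edgeR, 1 of the 4 was below 0.05 in sL1 over sBud and 0 in sS1 over sL1. The former was cas-MIR390-1 (log2 fold change -0.97, edgeR adjusted p = 0.00523). In sS1 over sBud 2 of the 4 fell (16.2% of all IDs), and the median log2 fold change was -1.38, beside -0.06 over all IDs. In sL2 over sBud 1 rose (23.4%) and 1 fell (19.8%), in sL2 over sL1 1 rose (21.2%), and in sS1 over sL2 1 fell (21.2%). The ID that fell in sL2 over sBud was again cas-MIR390-6, on the same few reads. There cas-MIR390-1 stayed within the fold threshold (log2 fold change -0.87, edgeR adjusted p = 0.00386). The most abundant, cas-MIR390-1, had 3067 ± 368 CPM in sBud, 1566 ± 170 CPM in sL1 and 1683 ± 323 CPM in sL2, with 859 ± 102 CPM in sS1, and fell in sS1 against sBud (log2 fold change -1.84 ± 0.21 SE, edgeR adjusted p = 1.89e-05).

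Replicates of a tissue differed by far more than the counting of reads. The coefficient of variation of cas-MIR166-4 was between 11.7% and 18.7% in a tissue, and counting alone gives at most 0.319%. For cas-MIR166-41 it was between 6.35% and 15.8%, for cas-MIR166-22 between 8.93% and 30.9%, and for cas-MIR166-32 between 18.4% and 25.6%, where counting gives up to 6.04%. The median over the 57 IDs with at least 100 counts on average was 12.6% for sBud, 22.0% for sL1, 20.7% for sL2 and 16.3% for sS1.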

How the data were processed

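By the study's methods, reads were trimmed of adaptors and filtered for quality, reads of rRNAs, tRNAs, snRNAs or snoRNAs were left out, and the remainder was compared with mature and precursor plant sequences in miRBase, allowing a small number of mismatches. Deposited for each library is 1 file of raw read counts for each conserved miRNA ID, not normalized by the authors. Each reported value was computed from these counts.

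IDs that reached 10 counts in all libraries together, 222 of them, were fitted in R 4.3.3 with edgeR 4.0.16 (TMM, glmQLFit, glmQLFTest, 1 term per tissue), with p adjusted by Benjamini and Hochberg over all of them. Correlations used log2(CPM + 1). Shares were tested in Python 3.11.15 with exact permutations. Both procedures were tested on simulated data. Wilson intervals and the floor of 3 counts cover counting error only, since PCR reads are not independent molecules, whereas intervals of log2 fold changes include the spread between libraries. The study calls the replicates biological, but how plants were divided among them is not stated in the sources used here.

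The members and lists were chosen with earlier results of these data known. The text names the 4 members, the most abundant other cas-MIR166- ID, for each member the 3 IDs with the most similar profile, and the most abundant ID of each list, and, chosen after their values were seen, cas-MIR166-13, cas-MIR166-28 and cas-MIR166-5. The alternatives were DESeq2 1.42.0, limma-voom (limma 3.58.1), other scalings, filters and call rules, fits of 2 tissues, shares among the 4 members only or as log2 odds (0.5 counts added), the replicate number as a block, and each library left out in turn.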

Additional observations from a re-analysis of the deposited data

How the results depend on the processing

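Results near the fold threshold depended on the processing. With adjusted p and no fold threshold, 3 members were called in sL1 over sBud against 1 in the report, and 2 in sL2 over sBud against 1, where scaling without the family also gave 2. In sS1 over sL1, 1 member was called against 0 with DESeq2, filterByExpr, a fit of the 2 tissues only, library size only, RLE size factors or scaling without the 5 most abundant IDs. In sS1 over sL2, 1 was called against 3 with DESeq2, RLE size factors or library size only, and 2 with filterByExpr or a fit of the 2 tissues only. In sS1 over sBud, 2 were called against 3 with each of these 5 settings. With 1 library left out, the number called ranged from 1 to 2 in sL1 over sBud, sL2 over sBud and sL2 over sL1, from 2 to 3 in sS1 over sBud, from 0 to 1 in sS1 over sL1 and from 1 to 3 in sS1 over sL2. Each call lost under these settings was lost to the fold threshold, as the highest unadjusted p among them was 0.0059.

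Values that changed sign were all undetectable differences. cas-MIR166-4 in sL2 over sBud, -0.02 in the report, was 0.029 with DESeq2 and with RLE size factors, 0.076 with library size only, and ranged from -0.24 to 0.082 with 1 library left out (0.082 without sBud replicate 2, 0.01 without sL1 replicate 3). cas-MIR166-22 in sS1 over sL2, -0.13 in the report, was 0.30 with scaling without the family and ranged from -0.23 to 0.27 with 1 library left out (0.27 without sL2 replicate 1, 0.04 without sS1 replicate 3). cas-MIR166-41 was -0.039 in sS1 over sBud with library size only and 0.046 in sS1 over sL1 with scaling without the family. The cause was not tested.

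The share differences ranged from 13.8 to 16.9 percentage points for cas-MIR166-4, 9.13 to 10.3 for cas-MIR166-41, 4.33 to 5.32 for cas-MIR166-22 and 0.567 to 0.878 for cas-MIR166-32 with 1 library left out. Libraries with the same replicate number did not visibly deviate together (1 of 18 pairs had a correlation above 0.1, and 2 of 12 libraries correlated best with their own number). This cannot exclude pairing, since counting noise of IDs with few counts lowers such correlations. The labels do not say what a number marks. With the replicate number as a block, the fit kept the number of members called in every comparison. Permuted within the block, the share difference of 9.88 for cas-MIR166-41 had an adjusted p of 0.0741 and that of 0.746 for cas-MIR166-32 an adjusted p of 0.0833 (exact permutation tests over 13824 arrangements). Over the other alternatives and libraries left out, these adjusted p-values reached at most 0.0308 for cas-MIR166-41 and 0.0561 for cas-MIR166-32 (exact permutation tests). Depth does not limit the values of the 4 members, whose lowest count in a library was 197.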
